A study of Mus musculus with 6 samples.

Results

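The genes described here encode the proteins of the nuclear pore and the receptors that carry cargo through it. They were chosen by a rule on symbols, with earlier results of these data known. The rule took nucleoporins named Nup with a number, the importins (Kpna, Kpnb1, Ipo), the transportins (Tnpo) and the exportins (Xpo). It also took Ndc1, Pom121, Tpr, Rae1, Seh1l, Sec13, Aaas, Cse1l, Nxf1 and Nxt1, without pseudogenes. This gave 54 of the 55367 gene rows in the deposited table, 28 for pore proteins and 26 for receptors and adaptors. The test took in the 51 of them whose mean level reached 10 reads.

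RNA sequencing compared LLC cells, a line established from a Lewis lung carcinoma of the mouse, under 2 conditions. The control group was wild-type LLC cells kept for 46 h with the solvent DMSO, and the treated group was the same wild-type cells kept for 46 h with 5 µM STM2457. This compound inhibits METTL3, the methyltransferase that puts N6-methyladenosine (m6A) on RNA. Both groups were grown in DMEM with 10% fetal bovine serum, with 3 libraries each. The question asked here is which transcripts of the transport machinery differ between the groups.

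The nuclear pore is a ring-shaped channel through the nuclear envelope. Its scaffold is built from Y complexes in the outer rings and from an inner ring, it is tied to the membrane by transmembrane proteins, and it carries filaments on the cytoplasmic side and a basket on the nuclear side. Importins bind cargo in the cytoplasm and release it in the nucleus when they meet Ran bound to GTP, exportins bind cargo together with Ran-GTP, and most mRNA leaves instead on the NXF1-NXT1 dimer, which does not use Ran directly.

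Each library held 17671713 to 17917211 reads in genes. Separate cultures are not named in the labels, and the p-values therefore reflect only how far these samples spread, which may be technical. The labels give lung as the tissue and a cancer cell as the type, but the epithelial markers Epcam and Cdh1 were at 0 in every library, and the 5 epithelial markers summed to 12 to 14 reads in DMSO and 0 to 10 after STM2457. The 5 lung epithelium markers summed to 69 to 89 and 81 to 96 reads, of which Foxa2 gave 68 to 95 in each library, while Nkx2-1 was at 0. The mesenchymal markers (Vim, Fn1, Zeb1, Cdh2) summed to 94371 to 95081 and 75973 to 77737 reads, nearly all from Vim and Fn1. These fell to 0.872 and 0.711 of DMSO (adjusted p = 4.1e-05 and 3.1e-11), while Cdh2 rose 1.32-fold (5.3e-06) and Zeb1 was at 1.06 (0.11). The fibroblast markers summed to 147 to 170 and 141 to 164 reads. Leukocyte markers summed to 4 to 11 and 12 reads, with Cd3e, Adgre1 and Itgam at 0, and endothelial markers to 3 to 5 and 4 to 9 reads. Mettl3, whose product STM2457 inhibits, gave 468, 605 and 538 reads in DMSO and 502, 454 and 518 after STM2457 (adjusted p = 0.15). The adjusted p was 0.04 with the libraries centred on their upper quartile, and 0.0089 without DMSO replicate 1. Exons of Mettl3 overlap Tox4 on the other strand.

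After STM2457, 22 of the 51 tested members rose and 10 fell at a limma adjusted p under 0.05. Among all 12618 tested genes 56.3% were called, 30.7% higher and 25.7% lower, so the members' 62.7% in all is near the background. By direction their shares were 43.1% higher and 19.6% lower. In 36 of the 51 members (25 higher, 11 lower) the 2 groups did not overlap after scaling to library size, against 61.8% of all tested genes (33.4% and 28.4%). The split between higher and lower calls depended on the scaling. With each library centred on its upper quartile, 17 members were higher (33.3%) and 13 lower (25.5%), beside 22.3% and 38.2% of all tested genes. Under that centring Nup43, Aaas, Kpna3, Kpnb1 and Tnpo1 were no longer called, Nup210l, Tnpo3 and Ipo5 were called lower, and the median log2 difference of all tested genes moved by -0.038. Because whole cultures were sequenced, fewer cells of a type and less RNA per cell cannot be told apart.

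Most changes in the transport machinery were small. Of the 32 called members, 21 changed less than 1.25-fold. Rises of at least 1.25-fold were called for 10 members, or 19.6% of those tested against 14.1% of all tested genes. Falls of the same size were called for 1 member, Seh1l, or 1.96% against 14.3%. The median fold was 1.06 for the members and 1.01 for all tested genes. All members together took 0.827% ± 0.0164 of the reads in genes in DMSO and 0.861% ± 0.00505 after STM2457 (SD, n = 3). DMSO replicate 1 lay above the mean of the other DMSO libraries for 37 of the 51 members, with a median difference of 0.049 in log2 recovered reads, against 20 members for each of DMSO replicates 2 and 3. The same count over all tested genes was not made, so this is not read as a trait of the members.

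**Figure D1:**
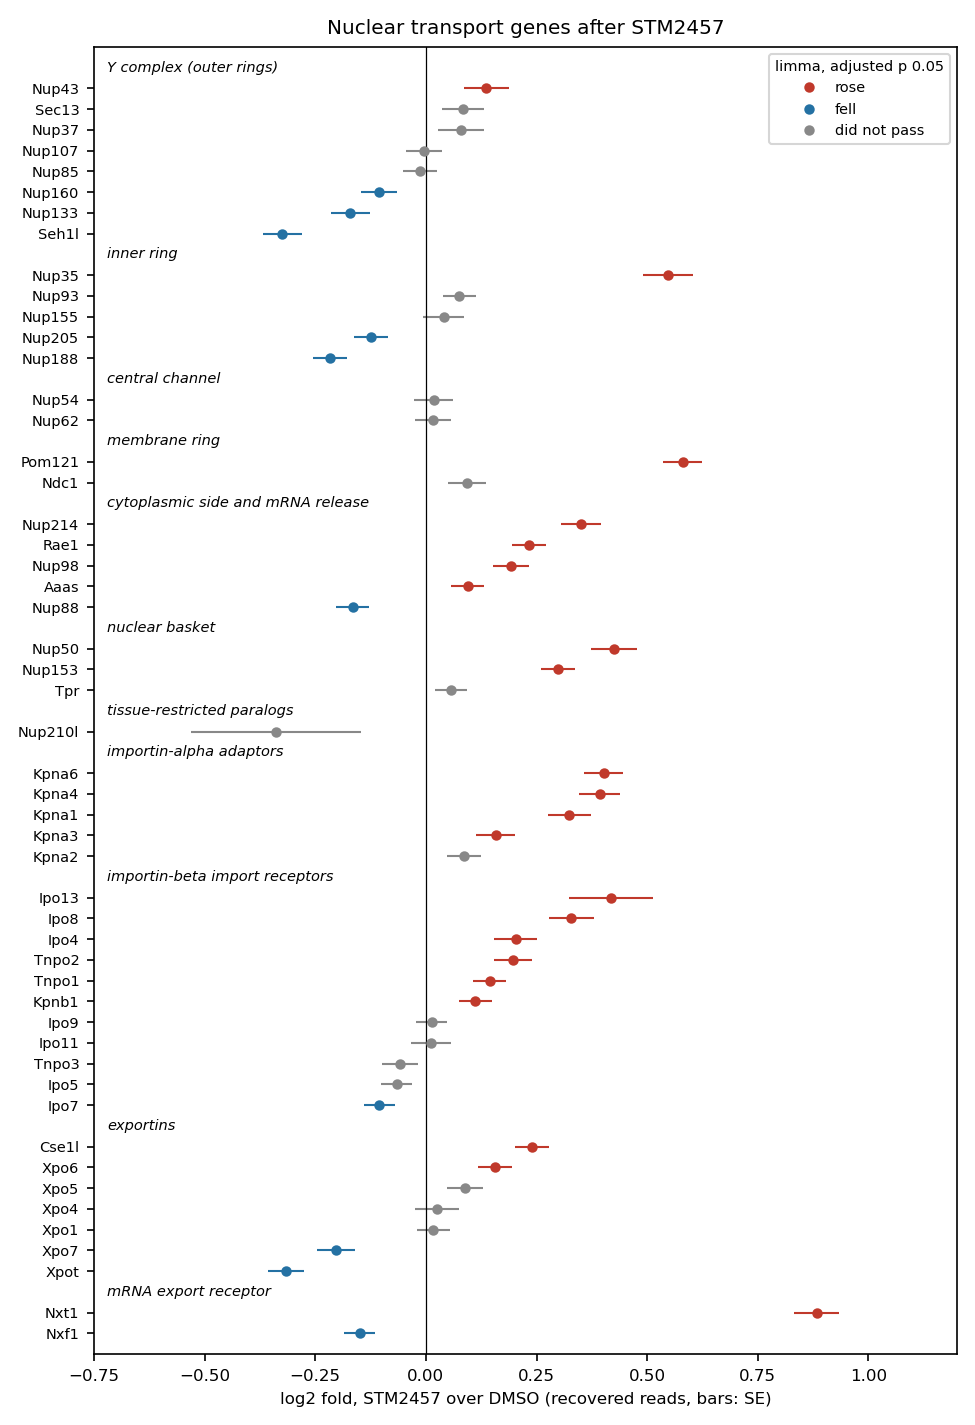
Log2 fold of each tested member after STM2457 over DMSO (horizontal axis, from the recovered reads of 3 libraries per group), grouped by role, with bars of 1 SE and colours for the limma call. Nxt1 lies farthest to the right at 0.88, while the called members of the Y complex and inner ring lie on both sides of 0.

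The mRNA export receptor showed the largest change of any tested member, in 1 of its 2 subunits. Nxt1 encodes the small NTF2-like subunit and lies at chr2:148672601-148676027 on the plus strand of GRCm38. Its transcript gave 823, 780 and 770 reads in DMSO and 1518, 1507 and 1385 after STM2457, so every treated library lay above every control. The rise was 1.84-fold (log2 fold 0.88, SE 0.05, adjusted p = 4.7e-13). Nxf1, at chr19:8757073-8770922 on the plus strand, encodes the large subunit that binds mRNA and the pore. It gave 4394, 4335 and 4392 reads in DMSO and 3931, 3958 and 4021 after STM2457, again without overlap, and fell to 0.901 of its DMSO level (log2 fold -0.15, SE 0.04, adjusted p = 0.001). Per kilobase of exon, the ratio of Nxt1 to Nxf1 was 0.743, 0.714 and 0.695 in DMSO and 1.53, 1.51 and 1.37 after STM2457. The mean ratio was 0.717 ± 0.0240 in DMSO and 1.47 ± 0.0900 after STM2457 (SD, n = 3). With 3 libraries against 3, an exact two-sided permutation test of such a ratio cannot go below 0.1, so no p is given for it or for the other ratios and shares.

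The promoters of these 2 subunits, which moved in opposite directions, are shown for comparison. The sequences come from RefSeq on GRCm38.p6 and stop just before the first annotated exon, 236 bases for Nxt1 (chr2:148672365-148672600, plus strand) and 220 bases for Nxf1 (chr19:8756853-8757072, plus strand). Capitals mark matches to the motifs searched on both strands: the E-box CACGTG, the NRF1 motif (GCGC, then N for any base, then TGCGC), the ETS motif CCGGAAG, the CCAAT box CCAAT, the GC box GGGCGG and the C/EBP-ATF element TGATGNAA.
Nxt1: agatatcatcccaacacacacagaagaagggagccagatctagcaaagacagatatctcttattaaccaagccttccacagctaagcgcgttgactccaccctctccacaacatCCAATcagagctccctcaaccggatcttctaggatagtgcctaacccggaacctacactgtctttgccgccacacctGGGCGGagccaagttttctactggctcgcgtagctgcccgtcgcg
Nxf1: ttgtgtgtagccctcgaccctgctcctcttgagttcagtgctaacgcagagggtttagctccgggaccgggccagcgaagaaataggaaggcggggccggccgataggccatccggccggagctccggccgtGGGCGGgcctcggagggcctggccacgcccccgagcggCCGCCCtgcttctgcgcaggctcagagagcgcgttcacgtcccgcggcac
The Nxt1 window holds 1 CCAAT box and 1 GC box, and the Nxf1 window holds a GC box on each strand and none of the other motifs.

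Promoters running from 250 before to 50 after the start were found for 43 of the 54 members. The 43 include Kpna7, Nup62cl and Nup210, which were not tested, unlike the tested genes set beside them. Kpna7 and Nup62cl are among the CCAAT matches, and Nup210 and Nup62cl among the GC box matches. GC boxes stood in 31 of the 43 (72.1%, against 70.1% of the tested genes with a promoter and 38.2% of all promoters). CCAAT boxes stood in 22 (51.2%, against 43.8% and 41.1%), and the ETS motif in 9 (20.9%, against 21.4% and 9.9%). The NRF1 motif was in 7 members (16.3%, against 12.2% and 5.2%): Nup50, Nxt1 and Rae1, which rose, and Ipo9, Nup107, Nup62 and Xpo5, which were not called. It was in 0 of the 8 fallen members with a promoter. The Nxt1 match does not lie in the stretch printed above. The E-box was also in 7 (16.3%, against 12.0% and 8.1%): Ipo4 and Tnpo2, which rose, Ipo7, Nup188 and Xpot, which fell, and Nup54 and Nup93, which were not called. The C/EBP-ATF element was in 0 of 43, against 2.5% and 4.5%. These are matches of letters, with no measure of binding.

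The pore scaffold had 2 of its 13 tested transcripts higher and 5 lower, beside 30.7% higher and 25.7% lower among all tested genes. With upper-quartile centring 1 was higher and 5 lower, beside 22.3% and 38.2% of all tested genes. The counts of each class below stand beside those same shares, and no class was tested as a set. Of the 8 tested members of the Y complex, which forms the outer rings, Nup43 rose, Seh1l, Nup133 and Nup160 fell, and Nup107, Nup85, Nup37 and Sec13 did not pass; the median fold was 0.994. Seh1l encodes a beta-propeller subunit that also serves in the GATOR2 complex of amino acid sensing. Its counts were 1690, 1833 and 1790 in DMSO and 1472, 1418 and 1383 after STM2457, with no overlap, a fall to 0.799 of the DMSO level (log2 fold -0.32, SE 0.04, adjusted p = 9.1e-07). Nup133, a subunit of the Y's stem, gave 1565, 1478 and 1614 reads against 1382, 1390 and 1392 (0.889 of DMSO, adjusted p = 0.0022). The 3 treated libraries lay close together and below all controls. Nup160, in an arm of the Y, gave 1961, 1927 and 1878 reads against 1801, 1743 and 1851 (0.929 of DMSO, adjusted p = 0.03). The groups did not overlap, but the Nup160 call was lost without DMSO replicate 1 (adjusted p = 0.078) and without STM2457 replicate 1 (0.073) or 2 (0.15).

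Nup43, another beta-propeller of the Y complex, rose 1.10-fold (adjusted p = 0.025). That call was lost with upper-quartile centring (0.27), without DMSO replicate 3 (0.13) and without STM2457 replicate 1 (0.057) or 2 (0.12). Sec13, shared with the COPII coat of secretory vesicles, was at 1.06 of its DMSO level (adjusted p = 0.14, and 0.021 without DMSO replicate 1). Nup107, Nup85 and Nup37 were at 0.997, 0.991 and 1.06 of DMSO (adjusted p = 0.93, 0.79 and 0.19). Thus the subunits of this single complex did not move as a block.

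The inner ring was mixed as well, with 1 of its 5 tested members higher and 2 lower (median fold 1.03). Nup35, whose product binds membranes and joins the inner ring to the envelope, gave 585, 573 and 528 reads in DMSO and 837, 785 and 857 after STM2457. The groups were far apart, a 1.46-fold rise (log2 fold 0.55, SE 0.06, adjusted p = 1.3e-08). The large scaffold proteins encoded by Nup188 and Nup205 are paralogs, and the transcripts of both fell. Nup188 gave 3013, 3166 and 2983 reads against 2676, 2691 and 2574 (0.861 of DMSO, adjusted p = 4.2e-05). Nup205 gave 5797, 5312 and 5387 against 5076, 5050 and 5104 (0.918 of DMSO, adjusted p = 0.0088). Neither pair of groups overlapped, and the Nup205 call was lost without DMSO replicate 1, the highest library (adjusted p = 0.052). Nup93, which links the inner ring to the channel, was at 1.05 of DMSO and Nup155, another scaffold subunit, at 1.03 (adjusted p = 0.096 and 0.49). The exons of Nup35 overlap Dusp19 on the same strand, and those of Nup188, Nup133 and Seh1l overlap predicted genes on the other strand. Nup62 overlaps Atf5 on the other strand and Il4i1 on the same strand, and in all 13 tested members overlap a gene on the other strand. The sources used here do not say whether counting took account of strand, so reads of such pairs cannot be told apart.

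The central channel is filled by nucleoporins rich in phenylalanine-glycine (FG) repeats. Its 2 tested members, Nup62 and Nup54, were each at 1.01 of their DMSO level (adjusted p = 0.75 for both). Of the 3 membrane-ring members, Pom121, Ndc1 and Nup210, the first rose. Pom121, at chr5:135376141-135394546 on the minus strand, encodes a transmembrane protein with FG repeats that acts early in pore assembly. It gave 1720, 1702 and 1725 reads in DMSO and 2492, 2762 and 2505 after STM2457. With the controls this close together and all treated libraries above them, the rise was 1.50-fold (log2 fold 0.58, SE 0.04, adjusted p = 6.3e-11). Pom121 shares exon sequence with Nsun5 on the other strand. Ndc1, a transmembrane anchor, was at 1.07 of DMSO (adjusted p = 0.067, and 0.012 without DMSO replicate 2). Nup210 was not tested: it gave 0, 2 and 0 reads in DMSO and 2, 2 and 3 after STM2457, at or under the 3 reads that a count of 0 allows (0.167 to 0.170 CPM, counting error only). Among the tissue-restricted paralogs, Nup210l gave 54, 40 and 43 against 38, 33 and 37 reads (0.790 of DMSO, adjusted p = 0.096). It passed as lower under upper-quartile centring (0.0079) and also without DMSO replicate 2 (0.046). Nup62cl was at 0 in every library.

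On the cytoplasmic side and among the factors of mRNA release, 4 of 5 members rose and 1 fell (median fold 1.14). With upper-quartile centring 3 rose and 1 fell. The shares of all tested genes were 30.7% and 25.7%, or 22.3% and 38.2% with that centring. Nup214, an FG nucleoporin of the cytoplasmic filaments, gave 1178, 1106 and 1084 reads in DMSO and 1408, 1439 and 1477 after STM2457. The groups were separate and the rise was 1.28-fold (adjusted p = 5.0e-07). Its binding partner in the filaments is encoded by Nup88, which gave 3743, 3821 and 3735 reads against 3419, 3438 and 3290. Thus Nup88 moved the other way, to 0.892 of DMSO (adjusted p = 5.1e-04), also without overlap. Nup98, a mobile FG nucleoporin found on both faces of the pore, gave 2250, 2213 and 2227 reads against 2463, 2687 and 2551 (1.14-fold, adjusted p = 2.9e-04). Rae1, the mRNA export factor that binds Nup98, rose 1.18-fold (adjusted p = 2.0e-05). Aaas, which encodes the pore protein aladin, rose 1.07-fold (adjusted p = 0.041), a call lost with upper-quartile centring (0.50), without DMSO replicates 2 (0.14) or 3 (0.077), and without any of the STM2457 replicates (0.074 to 0.13). The Aaas call was also lost without the filter on low values (0.083) and with plain priors (0.081). The exons of Nup88 overlap Rabep1 and those of Nup214 overlap Fam78a on the other strand.

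The nuclear basket had 2 of its 3 members higher (median fold 1.23), beside 30.7% of all tested genes. Nup50, a mobile cofactor that helps importin-α release its cargo, gave 2637, 2200 and 2351 reads in DMSO and 3199, 3268 and 3222 after STM2457. DMSO varied more than STM2457, but all treated libraries were higher, and the rise was 1.34-fold (log2 fold 0.42, SE 0.05, adjusted p = 1.1e-06). Nup153, the FG nucleoporin that anchors the basket, gave 3137, 3026 and 2914 against 3814, 3614 and 3813 reads (1.23-fold, adjusted p = 6.0e-07). Tpr, the coiled-coil protein that forms the basket's filaments, gave 6404, 6331 and 6085 against 6603, 6483 and 6621. The Tpr groups did not overlap, but the 1.04-fold difference did not pass (adjusted p = 0.19). Per kilobase of exon, the sum of the 8 cytoplasmic-side and basket transcripts over the sum of the 13 scaffold transcripts was 0.774 ± 0.00980 in DMSO and 0.880 ± 0.0176 after STM2457 (SD, n = 3). That grouping was made after the values were seen and is a description only. Each gene was placed in 1 class, so all reads of Nup98 were counted on the cytoplasmic side.

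The Nup50 promoter is shown because it holds the NRF1 motif at 3 places. The window is 233 bases at chr15:84923178-84923410 on the plus strand of GRCm38.p6, stopping just before the first annotated exon, with capitals at the NRF1 motifs, the CCAAT boxes and the GC box.
Nup50: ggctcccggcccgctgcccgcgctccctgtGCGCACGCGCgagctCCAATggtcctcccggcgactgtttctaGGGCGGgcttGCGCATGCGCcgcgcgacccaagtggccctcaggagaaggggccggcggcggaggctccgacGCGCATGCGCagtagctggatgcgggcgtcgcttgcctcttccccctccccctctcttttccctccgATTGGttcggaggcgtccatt

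**Figure D2:**
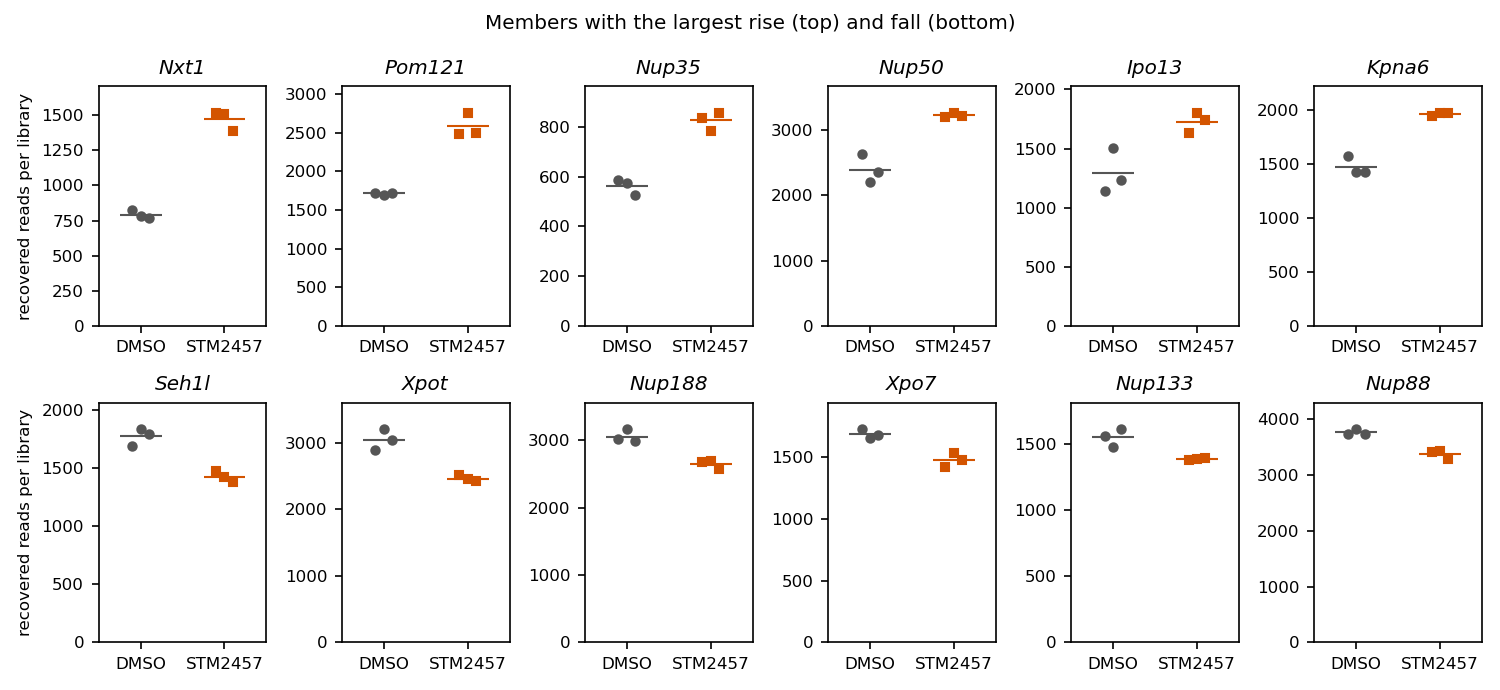
Recovered reads per library (vertical axes, from 0) for the 6 called members with the largest rise (top row) and the 6 with the largest fall (bottom row), with points for the 3 DMSO and 3 STM2457 libraries and lines at the group means. In all 12 panels the groups do not overlap, and the DMSO libraries of Ipo13 spread from 1141 to 1505 reads.

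Importin-α adaptors bind proteins with a classical nuclear localisation signal and couple them to importin-β. Of 5 tested adaptors 4 rose, beside 30.7% of all tested genes, and their median fold was 1.25. With upper-quartile centring 3 rose, beside 22.3% of all tested genes. The most abundant, Kpna2, did not pass. Kpna6 gave 1579, 1428 and 1424 reads in DMSO and 1942, 1976 and 1969 after STM2457, a 1.32-fold rise (log2 fold 0.40, SE 0.04, adjusted p = 4.4e-08). Kpna4 gave 1689, 1504 and 1501 against 2088, 1995 and 2115 (1.31-fold, adjusted p = 1.5e-07), and for neither gene did the groups overlap. Kpna1 gave 1559, 1350 and 1496 against 1778, 1881 and 1887 (1.25-fold, adjusted p = 6.8e-06), also without overlap. Kpna3 rose 1.12-fold (adjusted p = 0.0038, and 0.066 with upper-quartile centring). Kpna2 gave 5787, 5664 and 5254 against 5976, 6029 and 5833 reads. Its groups were within 1.06-fold and overlapped after scaling (adjusted p = 0.065), though it was called higher without DMSO replicate 1 (0.013) or 2 (0.045). Kpna7, an adaptor of oocytes and early embryos, was at 0 in every library.

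The makeup of the adaptor pool shifted slightly. Per kilobase of exon, Kpna2 made up 66.1%, 68.1% and 65.6% of the 5 detected adaptors in DMSO and 63.5%, 63.9% and 62.8% after STM2457, so it stayed the largest share in each library. The share of Kpna6 was 7.54% ± 0.188 and 8.93% ± 0.115, that of Kpna4 6.01% ± 0.193 and 7.08% ± 0.265, and that of Kpna1 5.95% ± 0.418 and 6.67% ± 0.245 (SD, n = 3). For these 4 genes the groups did not overlap. Kpna3 held 13.9% in both groups.

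**Figure D3:**
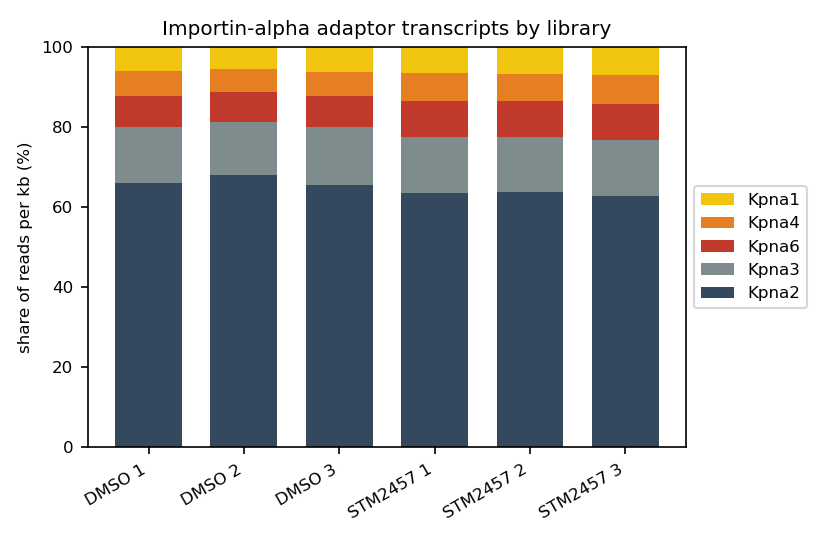
Share of each importin-α transcript in the summed reads per kilobase of the 5 detected adaptors (vertical axis, %), 1 stacked bar per library. Kpna2 fills 65.6% to 68.1% of the DMSO bars and 62.8% to 63.9% of the STM2457 bars, and the bands of Kpna6, Kpna4 and Kpna1 are wider after STM2457.

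Importin-β receptors bind the pore's FG repeats and carry cargo inward. Among 11 tested receptors 6 rose, 1 fell and 4 did not pass (median fold 1.08). With upper-quartile centring 4 rose and 3 fell. The shares of all tested genes were 30.7% higher and 25.7% lower, or 22.3% and 38.2% with that centring. Kpnb1, which encodes importin-β itself, gave 13972, 12855 and 12988 reads in DMSO and 14725, 14508 and 14066 after STM2457. It was 1.08-fold higher (adjusted p = 0.018), but after scaling to library size the groups overlapped. The Kpnb1 call was lost with upper-quartile centring (0.26), without DMSO replicates 2 (0.056) or 3 (0.071) and without STM2457 replicates 1 (0.092) or 2 (0.074). It was also lost with plain priors (0.056). The summed adaptors over Kpnb1, per kilobase, were 1.45 ± 0.0351 in DMSO and 1.49 ± 0.0253 after STM2457 (SD, n = 3), with overlap.

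The largest rises among the import receptors were in Ipo13 and Ipo8. Ipo13, a receptor that works in both directions, gave 1141, 1505 and 1231 reads in DMSO and 1635, 1804 and 1745 after STM2457. The groups did not overlap, though DMSO replicate 2 stood well above the other controls (1.34-fold, log2 fold 0.42, SE 0.10, adjusted p = 0.0064). Ipo8, a receptor that also associates with Argonaute proteins, gave 1239, 1060 and 1089 against 1423, 1453 and 1400 (1.26-fold, adjusted p = 9.8e-06). Ipo4, a histone import receptor, and Tnpo2, a paralog of transportin-1, each rose 1.15-fold (adjusted p = 0.0012 and 4.4e-04). Tnpo1, the receptor of RNA-binding proteins such as hnRNP A1, rose 1.11-fold (adjusted p = 0.0023, and 0.053 with upper-quartile centring).

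The import receptor that fell was Ipo7, the paralog of Ipo8 that carries ribosomal proteins and other cargo. It gave 5383, 5428 and 5384 reads against 5090, 4979 and 5095, without overlap (0.930 of DMSO, adjusted p = 0.014, and 0.075 without STM2457 replicate 2). So the paralogs Ipo7 and Ipo8 differed in direction, although no test of the difference between genes was made. Ipo5, another ribosomal protein receptor, was at 0.955 of DMSO (adjusted p = 0.13), and Tnpo3, the importer of SR splicing factors, at 0.960 (adjusted p = 0.22). Both passed as lower under upper-quartile centring (0.0021 and 0.0080) and also without DMSO replicate 2 (0.032 and 0.049). Ipo9 and Ipo11 were each at 1.01 of DMSO (adjusted p = 0.77 and 0.84). The exons of Tnpo3 overlap those of Irf5 on the other strand.

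Of the 7 exportins, 2 rose, 2 fell and 3 did not pass (median fold 1.02). Xpo1 encodes CRM1, the general exporter of proteins with a leucine-rich export signal. It gave 5770, 5340 and 5522 reads in DMSO and 5754, 5550 and 5634 after STM2457, overlapping groups within 1.01-fold (adjusted p = 0.73). Cse1l, which returns importin-α to the cytoplasm, gave 4123, 3835 and 3818 against 4726, 4714 and 4552. All treated libraries were above all controls for Cse1l, a 1.18-fold rise (log2 fold 0.24, SE 0.04, adjusted p = 1.3e-05). Its ratio to the summed importin-α transcripts, per kilobase, was 0.256 ± 0.00423 in DMSO and 0.271 ± 0.00362 after STM2457 (SD, n = 3). Xpo6, the exporter of actin, rose 1.11-fold (adjusted p = 0.0012).

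Xpot, at chr10:121587380-121626332 on the minus strand, encodes the exporter of tRNA. It gave 2889, 3206 and 3044 reads in DMSO and 2516, 2450 and 2425 after STM2457. The groups were separate, and Xpot fell to 0.804 of its DMSO level (log2 fold -0.32, SE 0.04, adjusted p = 4.8e-07). Xpo7, an exportin of broad cargo range, gave 1728, 1659 and 1681 against 1420, 1535 and 1477, also without overlap (0.868 of DMSO, adjusted p = 3.0e-04). Its exons overlap those of Npm2 on the same strand. Xpo5, the exporter of microRNA precursors, was at 1.06 of DMSO (adjusted p = 0.070, and 0.0018 without DMSO replicate 2), and Xpo4, which also serves in import, at 1.02 (adjusted p = 0.68).

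The Xpot promoter is shown as that of the exportin with the largest fall. It is 250 bases at chr10:121626333-121626582, given on the gene's minus strand of GRCm38.p6, with capitals at its E-box and at a GC box on the opposite strand.
Xpot: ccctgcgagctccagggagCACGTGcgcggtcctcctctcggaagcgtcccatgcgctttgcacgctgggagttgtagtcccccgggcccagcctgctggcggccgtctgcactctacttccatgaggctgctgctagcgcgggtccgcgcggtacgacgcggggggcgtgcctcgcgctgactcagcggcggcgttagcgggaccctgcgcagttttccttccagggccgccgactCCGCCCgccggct
Myc, whose product binds E-boxes, gave 11116, 14441 and 13231 reads in DMSO and 8747, 8668 and 8752 after STM2457 (0.674 of DMSO, adjusted p = 0.0032). Its part in any change of a member was not tested.

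Levels differed widely between members. As RPKM (reads per kilobase of exon, scaled to the reads in genes), the highest DMSO levels were those of Kpnb1 (114 ± 5.26), Ipo5 (112 ± 2.98) and Kpna2 (110 ± 5.52, SD, n = 3), which lay within each other's spread. After them came Nup62 (64.0 ± 2.94), Aaas (60.2 ± 1.90) and Nxf1 (55.9 ± 0.431), of which Nup62 and Aaas were within their spread. Nxt1 rose from 40.1 ± 1.44 to 73.6 ± 3.61 on this scale, and so passed Nxf1, which went from 55.9 ± 0.431 to 50.1 ± 0.639. At the low end of the tested members were Nup210l (0.452 ± 0.0730), Ipo8 (4.05 ± 0.345) and Xpo4 (4.34 ± 0.138, SD, n = 3), the last 2 of which were within their spread. These levels divide by all annotated exons of a gene joined together, and the order of members depends on that length. For Ipo8 it was 15793 bases, against 5360 in its longest coding transcript. For Xpo4 the lengths were 10731 and 8680 bases, and for Nup88 8144 and 2453.

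**Figure D4:**
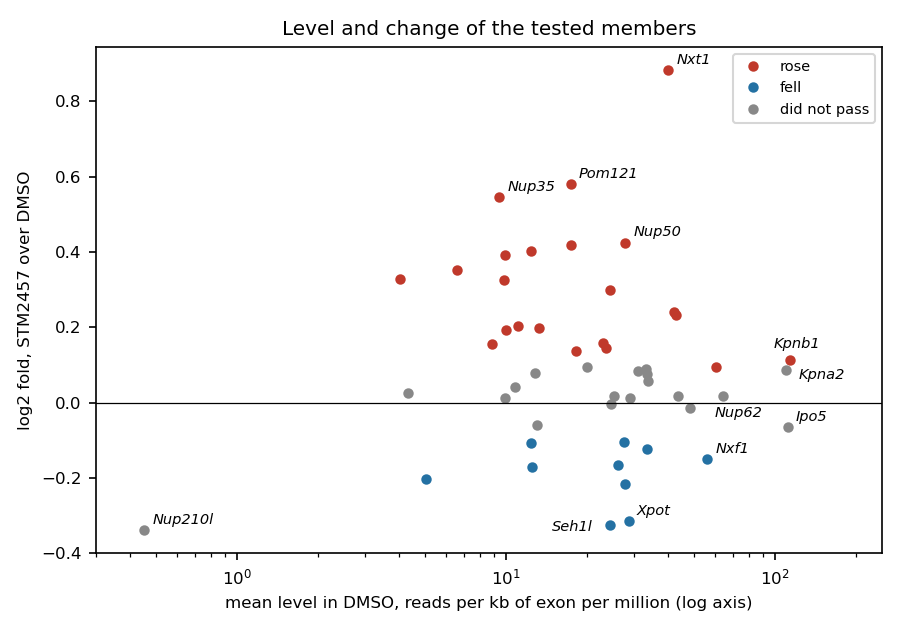
Mean DMSO level of each tested member as RPKM (horizontal, log axis) against its log2 fold after STM2457 (vertical), coloured by the limma call. Kpnb1, Ipo5 and Kpna2 lie to the right between -0.07 and 0.11, and Nxt1 stands above all others at 0.88.

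Other genes of nuclear transport, taken from lists by role, give the setting. Their counts stand beside 30.7% higher and 25.7% lower of all tested genes, or 22.3% and 38.2% with upper-quartile centring. No list was tested as a set. Of 6 tested genes of the Ran cycle 4 rose and 1 fell (median fold 1.10), and 2 rose and 1 fell with upper-quartile centring. Rcc1, the exchange factor that charges Ran with GTP, rose 1.35-fold (adjusted p = 1.4e-09), Ranbp3, a cofactor of CRM1, 1.23-fold (4.1e-07), and Rangap1, the GTPase activator, 1.11-fold (0.0017, and 0.055 with upper-quartile centring). Nutf2, which carries Ran back into the nucleus, rose 1.09-fold (adjusted p = 0.0081, with 0.061 without STM2457 replicate 2 and 0.17 under upper-quartile centring). Ran itself fell to 0.928 of DMSO (adjusted p = 0.018), a call lost without DMSO replicate 1 (0.067) or STM2457 replicates 2 (0.082) or 3 (0.092). The Ran call was also lost with plain priors (0.053). Thus the members of the cycle did not all move one way.

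Among 9 tested pore proteins and importin-β relatives outside the symbol rule, 6 rose and 2 fell (median fold 1.15, and 5 and 3 with upper-quartile centring). Without DMSO replicate 2 or STM2457 replicates 1 or 2, 1 fell. Ranbp2, the large nucleoporin of the cytoplasmic filaments, rose 1.31-fold (adjusted p = 2.8e-08) and Nupl2, an FG nucleoporin of the same face, 1.64-fold (7.3e-09). Tmem33, a transmembrane protein, and Senp1, a SUMO protease found at the pore, rose 1.15-fold and 1.16-fold (adjusted p = 5.4e-04 and 6.4e-04). Nupl1, an FG nucleoporin of the channel, is listed at 0 in every library, and because it is a core subunit of the pore this 0 is not read as a missing transcript.

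Of 24 tested genes of mRNA export (the TREX and TREX-2 complexes, cap-binding proteins and release factors), 5 rose and 4 fell (median fold 0.969), and 4 rose and 12 fell with upper-quartile centring. Ncbp2, the cap-binding subunit, rose 1.22-fold and Thoc1, a core subunit of the THO complex, 1.25-fold (adjusted p = 3.3e-06 and 9.2e-06). Poldip3, an export adaptor, rose 1.13-fold (adjusted p = 9.1e-04), and Pcid2, of TREX-2, fell to 0.828 of DMSO (adjusted p = 4.6e-05). Of 7 genes for cargo and adaptors of other RNAs, 4 rose and 1 fell (median fold 1.11, and 3 and 1 with upper-quartile centring). The gene that fell was Snupn, which encodes an import adaptor of small nuclear RNPs and was named after its values were seen, and it was not called without DMSO replicate 3 or STM2457 replicates 2 or 3, with the replicate block, with plain priors or with the filter of 100 reads. Phax, the adaptor that brings small nuclear RNA to CRM1, rose 1.59-fold (adjusted p = 2.5e-08). Drosha and its partner Dgcr8, whose products release the microRNA precursors that exportin-5 carries from longer primary transcripts, rose 1.24-fold and 1.39-fold (adjusted p = 5.9e-07 and 5.4e-06), and Nmd3, the adaptor of the large ribosomal subunit, 1.11-fold (0.0040, and 0.096 with upper-quartile centring).

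The nuclear lamina and envelope, the surroundings of the pore, had 3 of 17 tested genes higher and 4 lower (median fold 0.999, and 3 and 7 with upper-quartile centring). Lmna, which encodes the A-type lamins, rose 1.16-fold (adjusted p = 2.3e-05). Syne1 and Syne3, which encode nesprins of the outer envelope, fell to 0.726 and 0.788 of DMSO (adjusted p = 9.2e-09 and 2.6e-06). Lbr, the lamin B receptor, fell to 0.811 (2.1e-06). Among the companion genes named here, exons of Phax, Dgcr8, Ncbp2, Thoc1, Rangap1, Senp1 and Lbr overlap other genes on the opposite strand. Exons of Rcc1, Tmem33 and Pcid2 overlap predicted genes there. As for the members, reads of such pairs cannot be told apart.

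The m6A writer acts on a short motif, of which GGACT is a common form. In each gene's longest coding transcript, the median number of GGACT per kilobase was 0.94 in the 22 members that rose, 0.95 in the 10 that fell and 0.90 in the 19 not called. Among all tested genes with a transcript the medians were 1.08, 1.00 and 1.03 in the same order. The medians of the members were a little below those of all tested genes, which include them, but the spreads overlapped widely. For genes that rose, the quartiles were 0.5 and 1.3 in the members and 0.68 and 1.58 in all. No test of the difference was made, and the motif does not show where m6A was.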

How the data were processed

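Total RNA from 3 DMSO and 3 STM2457 libraries of LLC cells was extracted with TRIzol and a SMARTER mRNA-Seq kit was used for the libraries, per the labels' protocols. FastQC 0.11.9, HISAT2 2.2.1, featureCounts 2.0.1 (Subread), DESeq2 and the GRCm38 build are listed per the submitters' processing notes. Settings, annotation and strand: not given in the sources used here. A table was deposited by the authors in log2 values, 1 row per symbol, 31229 of 55367 rows at 0 throughout. The transform is not stated. Judged by its values it is a regularised log2, which shrinks differences: the called members kept a median of 56.9% of their log2 fold.

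The shrinkage was inverted to recover reads (ridge penalty 60.28, dispersion 1.894 over the mean plus 0.0111). Of the members' 306 values, 79.4% were whole within 0.05 reads, and all were rounded. On simulated counts of 22769 genes for STM2457 against DMSO, 100.0% of values were recovered. Those were made with the same equations and fitted settings, so they cannot show that the deposited values have this form. For genes with a mean of 2000 reads or more, 72.9% of the deposited values were whole within 0.05 reads.

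Limma 3.58.1 (R 4.3.3, trend and robust priors, statmod 1.5.0) was fitted to the deposited log2 values of the 12618 genes with a mean of at least 3.32, the log2 of 10 reads, with Benjamini-Hochberg adjustment over all of them and a threshold of 0.05. No count test was the main one, since the table holds log2 values. Folds and their SEs come from limma-voom on the recovered reads. Levels per kilobase use the joined length of all annotated exons of a gene in GENCODE M21. Simulated data for this comparison held 12618 genes as log2 reads, without the shrinkage of the deposited table. There limma found 97 of 100 genes given a log2 fold of 1 and 78 of 100 given 0.5. It called 5 of 12418 unchanged genes. The simulated libraries of both groups shared 1 dispersion. In the data, the DMSO libraries differed more among themselves (chi-square per degree of freedom 3.01 to 5.02) than the STM2457 libraries (1.56 to 2.3). How often limma finds changed genes or calls unchanged ones in the deposited table was not tested.

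Members, lists and motifs were chosen with earlier results of these data known. Any member could be named. Values in every library were given for the 10 largest called rises and falls and for 9 members picked by role, and companion lists were named by their 4 smallest p-values, with Ran, Nupl1, Nup210 and Nup210l added after their values were seen. Alternatives were other filters, upper-quartile centring, limma-voom, a replicate block, plain priors and leaving out each library.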

Additional observations from a re-analysis of the deposited data

How the results depend on the processing

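Of the 32 called members, 24 kept their call and direction in all 12 alternatives (17 higher, 7 lower), and no member reversed. The counts of 22 higher and 10 lower members were 22 and 10 with limma-voom, 22 and 10 of 50 with a filter of 100 reads, 20 and 9 without a filter, and 20 and 9 with plain priors. Leaving out 1 library gave 19 to 24 higher and 8 to 13 lower members, and 3402 to 3797 higher and 2704 to 3152 lower genes in all. Upper-quartile centring changed the calls of 8 of 51 members, and leaving out DMSO replicate 2 also changed 8. The cause was not tested. For the companion lists the same alternatives were added after seeing the data. With 100 bases before the start in place of the longer window, the E-box was in 2 of 43 members (4.7%, against 5.7% of tested genes) and the GC box in 18 (41.9%, against 52.7%), so both shares went from above to below the tested genes. The NRF1 motif was in 4 (9.3%, against 6.8%), the ETS motif in 8 (18.6%, against 11.6%, so from below to above) and the CCAAT box in 13 (30.2%, against 27.1%). No member that rose held the E-box or the NRF1 motif there.

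Same-numbered libraries correlated at 0.05, 0.011 and 0.04 in their deviations from the group means, and differently numbered ones at -0.056 to 0.022. With so few libraries, these values cannot show whether the replicate numbers pair them. With the replicate number as a block, 22 members were higher and 10 lower and no member's call changed, while the fall of Snupn among the companion genes was no longer called, and in all 3864 genes were higher and 3226 lower. No pair of replicates was a duplicate (chi-square per degree of freedom 1.56 to 5.02).

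A linear-scale pseudocount did not apply to log2 values and was not run. With 3 libraries per group, a p that misses the threshold does not show that a transcript was unchanged, and counts above 500 reads are recovered less exactly than low ones.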
